A study of Arabidopsis thaliana with 9 samples.

Results

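The Arabidopsis thaliana mutant atd14-1, which carries a lesion in the strigolactone receptor gene D14, was compared with the wild type Col-0 over all genes with a locus ID. The comparison uses 6 of the 9 libraries of the series, 3 of atd14-1 and 3 of Col-0. The other 3 libraries are of AtCXE15-OE, a line that overexpresses a carboxylesterase and is described as defective in strigolactone, and they share the estimate of spread in the fit and otherwise enter only where atd14-1 was tested directly against them. Of 27366 rows with a locus ID in the deposited table, 21131 passed the filter on low counts and were tested. The samples were whole untreated seedlings kept at 22 °C with 16 h light and 8 h dark each day. Their age is given as 8 days in one label and as 10 days in another. The kind of lesion in atd14-1, the hour of harvest and whether libraries came from separately grown plants are not stated by the labels. The p-values therefore reflect only how far the libraries scatter, which may be technical scatter, and a difference in harvest or handling cannot be told apart from genotype.

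Strigolactones are carotenoid-derived hormones that restrain shoot branching and are exuded from roots when phosphate is scarce. D14 is an alpha/beta hydrolase that binds and cleaves the hormone, and then joins the F-box protein MAX2 to mark the repressors SMXL6, SMXL7 and SMXL8 for degradation. The repressors feed back on transcription of the pathway's own genes, so that plants that cannot perceive the hormone are known to accumulate transcripts of its synthesis enzymes.

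Libraries held 37631800 to 53132677 counts over the rows with a locus ID. Levels below are TMM-scaled CPM, which are counts scaled to a common library size and composition, and a count of 3, taken as the floor, was worth 0.0565 to 0.0797 CPM, which covers counting error only. The count table lists some neighbouring genes with overlapping coordinates, and the count of such a gene may hold reads of its neighbour. In 79 of the 13458 tested genes with a mean of 10 CPM or more the value changed at least 10-fold between libraries of one group, and 1 of these 79 passed the test. PSBY, a photosystem II gene, shows the pattern, with 1434, 2.91 and 2.79 CPM in Col-0 and 3.11, 2.7 and 3.15 CPM in atd14-1.

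D14 was examined first. It was at 44.9, 44.9 and 45.4 CPM in Col-0 and 6.5, 6.82 and 6.93 CPM in atd14-1. The groups were far apart, and D14 fell 6.67-fold in the mutant (log2 fold change -2.74 ± 0.06 SE, edgeR adjusted p = 1.06e-11). D14 lies on chromosome 3 from 1033579 to 1035237 of the TAIR10.1 annotation. Its transcript was thus reduced and still detected in all 3 libraries labelled atd14-1.

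In all, 2558 of the 21131 genes passed edgeR's quasi-likelihood test at an adjusted p of 0.05, a share of 12.1%. Of these, 1082 were higher in atd14-1 (5.12% of the genes tested) and 1476 were lower (6.98%). Scaled by library size alone, 2253 genes were higher (69.9% of the calls, against 42.3% with TMM) and 971 lower, so the balance of the directions rests on the composition factors. Without atd14-1 replicate 1 or atd14-1 replicate 2 the higher count was 669 or 702. Most changes were small. The median fold of the genes that passed was 1.31, 1918 of them changed less than 1.5-fold, and 198 (0.937% of the genes tested) changed at least 2-fold, 108 higher and 90 lower. The values of the groups did not overlap in 6696 genes (31.7%). The share that passed differed with expression level. With the genes ranked by mean level into 4 equal bins, 22.0% passed in the highest bin (44.4 CPM or more), 383 higher and 777 lower, and 4.85% in the lowest bin, 151 higher and 105 lower. The median log2 fold change of all genes tested was 0.01.

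**Figure D1:**
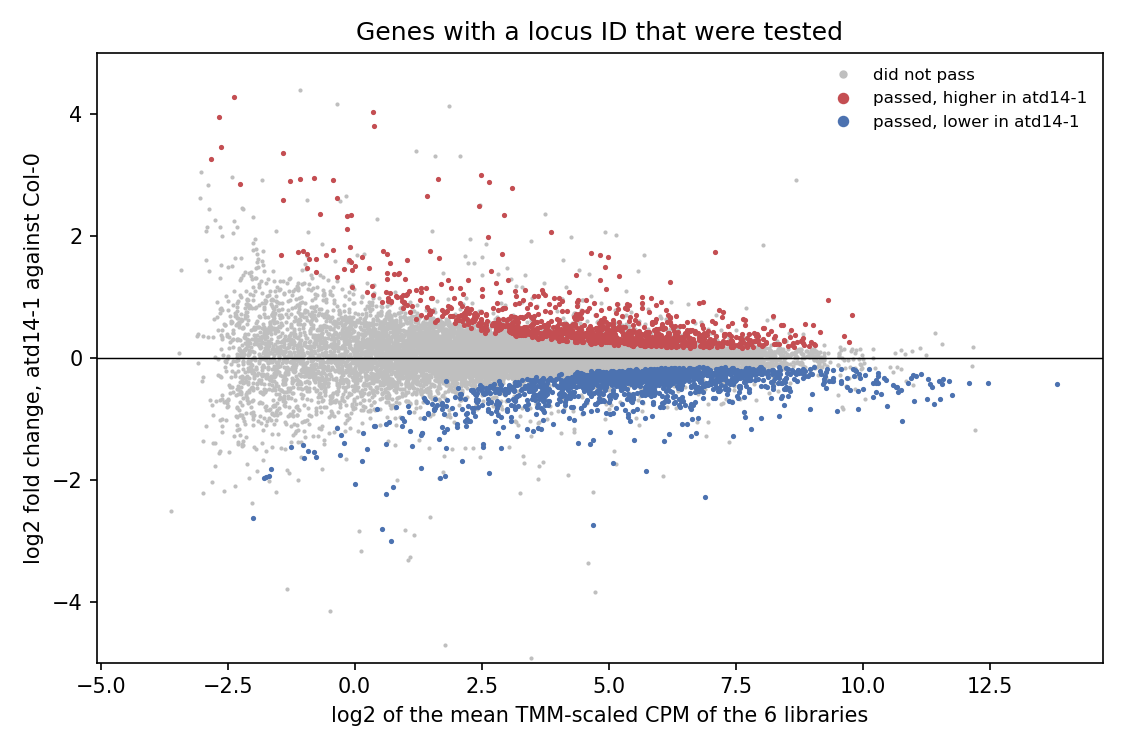
Each point is one of 21131 tested genes, with the log2 of its mean TMM-scaled CPM over the 6 libraries on the x axis and its log2 fold change in atd14-1 against Col-0 on the y axis. Genes that passed edgeR's test are red (1082 higher) or blue (1476 lower), the blue points extend to the highest levels on the right, and 19 genes beyond the axis limit of 5 are not drawn.

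Of the 5 tested genes of strigolactone synthesis 3 rose in the mutant and 1 fell (80.0%, against 12.1% of all genes tested). CCD7, a carotenoid cleavage dioxygenase on chromosome 2 (18558885 to 18561621), was at 0.0947, 0.258 and 0.167 CPM in Col-0 and 2.62, 2.5 and 2.22 CPM in atd14-1. The Col-0 libraries held 4, 10 and 7 counts, close to the floor, while the mutant libraries held 101, 138 and 102, so the groups were clearly apart and the size of the fold is uncertain (log2 fold change 3.81 ± 0.39 SE, edgeR adjusted p = 1.92e-05). CCD8, which acts on the product of CCD7, was at 2.15, 1.93 and 2.38 CPM in Col-0 and 15.2, 15.5 and 13.9 CPM in atd14-1. Every mutant library was above every Col-0 library (log2 fold change 2.79 ± 0.14 SE, edgeR adjusted p = 3.09e-08). The row of CCD8 overlaps that of AT4G32820, which did not pass the test (log2 fold change 0.13), and the sum of both rows was at 0.46. LBO1, an oxidoreductase that acts late in the pathway, was at 14.6, 15.3 and 13.6 CPM in Col-0 and 20.8, 23.1 and 19.8 CPM in atd14-1, again without overlap (log2 fold change 0.55 ± 0.09 SE, edgeR adjusted p = 0.000913). Tested directly, CCD7 and CCD8 were also higher in atd14-1 than in AtCXE15-OE, by 1.24 ± 0.32 and 0.98 ± 0.13 on the log2 scale (edgeR adjusted p = 0.0321 and 0.000502).

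The remaining enzymes differed from that pattern. D27, the carotene isomerase at the head of the pathway, was at 10.3, 7.35 and 6.54 CPM in Col-0 and 5.57, 5.41 and 5.43 CPM in atd14-1. It fell (log2 fold change -0.56 ± 0.16 SE, edgeR adjusted p = 0.0319). Its row overlaps that of AT1G03050, which held 0.0275 CPM on average, and the sum of both rows was at -0.54. The D27 call was lost with scaling by library size alone and when Col-0 replicate 1 or any 1 mutant library was left out (edgeR adjusted p up to 0.165). MAX1, the cytochrome P450 that oxidises carlactone and whose row overlaps that of IQD6, had overlapping groups (21.6, 23 and 21.1 CPM in Col-0 and 27.4, 22.4 and 22.9 CPM in atd14-1) and did not pass (edgeR adjusted p = 0.499). Per kilobase of the gene length in the deposited table, D14 went from 39.6 to 5.93 RPKM and CCD7 from 0.0916 to 1.29 RPKM, so CCD7 stayed the scarcer transcript in the mutant.

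**Figure D2:**
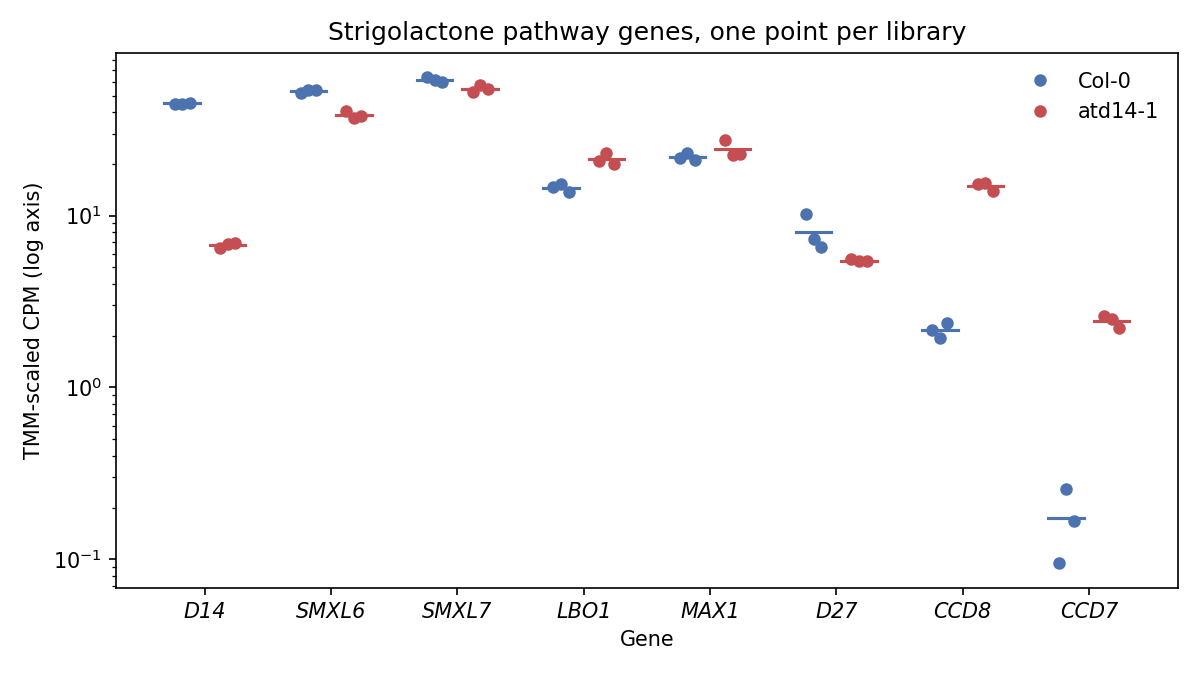
TMM-scaled CPM on a log axis of 8 strigolactone genes in each library, with Col-0 in blue, atd14-1 in red and a bar at the mean of 3 libraries. D14 and SMXL6 sit lower and LBO1, CCD8 and CCD7 higher in every mutant library, while the groups of MAX1 overlap.

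Among 15 tested genes of strigolactone and karrikin signalling, 2 fell, D14 itself and SMXL6, and the list had a median log2 fold change of -0.11. This share of 13.3% is close to the 12.1% of all genes tested. SMXL6, a repressor that D14 removes, was at 52, 54 and 54 CPM in Col-0 and 40.9, 36.9 and 37.9 CPM in atd14-1. The groups did not overlap (log2 fold change -0.47 ± 0.06 SE, edgeR adjusted p = 0.000128). Its close relative SMXL7 was at 63.8, 61.8 and 59.9 CPM in Col-0 and 52.5, 57.5 and 54.4 CPM in atd14-1, also without overlap, and missed the threshold (log2 fold change -0.18 ± 0.06 SE, edgeR adjusted p = 0.0553), though DESeq2 called it. SMXL8, the third of these repressors, overlapped between groups and was at 0.07 ± 0.10 (edgeR adjusted p = 0.732).

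The other parts of both signalling routes did not pass. The shared F-box gene MAX2 was at -0.13 ± 0.07, the karrikin receptor gene KAI2 at 0.13 ± 0.07, and the repressor genes of the karrikin route, SMAX1 and SMXL2, at -0.17 ± 0.07 and -0.08 ± 0.07. KUF1, which responds to karrikin signalling, was at -0.11 ± 0.10 and BZS1, a B-box gene, at -0.45 ± 0.26. BRC1, a transcription factor that arrests axillary buds, had 0, 5 and 12 counts in Col-0 and 3, 0 and 0 counts in atd14-1, too few for a fold. BRC2 was at 0.35 ± 0.55, and the homeobox genes HB21, HB40 and HB53, which act below BRC1 in buds, were at 0.15 ± 0.34, 0.59 ± 0.25 and 0.40 ± 0.16. Of these log2 fold changes, 2 turned sign with 1 library left out, BRC2 to -0.18 without atd14-1 replicate 2 and HB21 to -0.02 without Col-0 replicate 3.

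In bulk seedlings fewer cells of a type and less RNA per cell cannot be told apart, and this holds for each level below. Of 30 tested nuclear genes for photosystem and antenna subunits, 25 fell in atd14-1, and all 30 had log2 fold changes below 0, with a median of -0.45. All 30 belong to the bin of the highest level, where 22.0% of genes passed. The summed level of the list was 60573, 59231 and 62522 CPM in Col-0 and 42745, 42467 and 44775 CPM in atd14-1. The mutant libraries were all lower, at 69.9% to 73.7% of the Col-0 mean. LHCA1, for an antenna protein of photosystem I, was at 3423, 3426 and 3319.9 CPM in Col-0 and 1944, 1909 and 2166 CPM in atd14-1. It fell with no overlap of groups (log2 fold change -0.76 ± 0.07 SE, edgeR adjusted p = 7.81e-06). Outside the list, 3 genes for the major antenna protein of photosystem II were among the 8 greatest losses of CPM in rows that overlap no other. LHB1B1 was at 2253, 2315 and 2498 CPM in Col-0 and 1130.4, 1148 and 1175 CPM in atd14-1 (log2 fold change -1.03 ± 0.06 SE, edgeR adjusted p = 6.52e-08). CAB1 was at 15188, 17742 and 16765 CPM in Col-0 and 12746, 12138 and 12138 CPM in atd14-1 (log2 fold change -0.42 ± 0.06 SE, edgeR adjusted p = 0.000183), and CAB3 was at -0.71 ± 0.07. Again no mutant library reached the level of any Col-0 library. Reads of CAB1, CAB3 and LHB1B1 may be split among near-identical paralogs.

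The decline covered both photosystems. PSBP-1, of the oxygen-evolving complex, was at -0.39 ± 0.05 and LHCB5, a minor antenna protein, at -0.43 ± 0.07. LHCA4, LHCB3, LHCB2.1 and LHCA3 were at -0.61 ± 0.05, -0.67 ± 0.06, -0.83 ± 0.08 and -0.47 ± 0.05, and their rows overlap others. Without overlapping rows 13 of 17 members fell. The 5 members that did not pass were PSBY, PSAD-1, PSBW, PSBX and LHCB4.2, with uneven values between libraries in PSBY, PSBW and LHCB4.2 and, for PSAD-1, in AtCXE15-OE, which shares the estimate of spread. Against AtCXE15-OE 24 members were lower in atd14-1 (in that test 1488 genes or 7.04% passed, 2.86% higher and 4.18% lower, and 782 to 2227 genes with 1 library left out), with LHCA1 at -0.61 ± 0.07 (edgeR adjusted p = 0.000174).

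Of 22 genes for chlorophyll synthesis and chloroplast regulators 12 fell (median log2 fold change -0.30). The bin of the highest level, where 22.0% of genes passed, holds 20 of the 22. CAO, which makes chlorophyll b, was at 225, 225 and 222 CPM in Col-0 and 141, 147 and 145 CPM in atd14-1. HEMA1, whose product starts tetrapyrrole synthesis, was at 445, 453 and 453 CPM in Col-0 and 309.5, 309 and 307 CPM in atd14-1. The replicates of each group lay within a few percent of one another and the groups were far apart (log2 fold change -0.63 ± 0.04 SE, edgeR adjusted p = 7.04e-07 and log2 fold change -0.55 ± 0.05 SE, edgeR adjusted p = 3.48e-06). GLK2, a transcription factor for antenna and chlorophyll genes, fell (-0.52 ± 0.04), while its homologue GLK1 overlapped between groups (232, 244 and 236 CPM in Col-0 and 237, 228 and 244 CPM in atd14-1, log2 fold change -0.00 ± 0.05). CRD1 and GUN4, whose rows overlap others, were at -0.59 ± 0.05 and -0.50 ± 0.06. Of 17 Calvin cycle genes 9 fell (median -0.25). All 17 belong to the bin of the highest level, where 22.0% of genes passed. The count that fell was 5 without Col-0 replicate 1, Col-0 replicate 2, atd14-1 replicate 1 or atd14-1 replicate 2, and 4 without Col-0 replicate 3. RCA, for Rubisco activase, was at -0.41 ± 0.05 in a row that overlaps another. FBA2, GAPB, RPE and CP12-1, which code for aldolase, a glyceraldehyde phosphate dehydrogenase subunit, an epimerase and a linker protein, were at -0.27 ± 0.05, -0.25 ± 0.05, -0.26 ± 0.05 and -0.27 ± 0.06. The call of CP12-1 was lost without Col-0 replicate 3 or atd14-1 replicate 1 or 2 (edgeR adjusted p up to 0.0684).

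The G-box (CACGTG, a palindrome), which light-regulated promoters are known for, was searched in the 250 bases before and 50 bases after each annotated gene start. It was present in 10 of the 30 photosystem and antenna genes (33.3%) and in 8.76% of 20987 tested genes. In PSAE-1, PSBO1, PSBO2, PSBR and PSBW, 5 of these 10 genes, the only match lies after the start, and in the 200 bases before the start the shares were 5 of 30 (16.7%) and 6.47%. Of the 25 members that passed, 9 held the G-box in the longer window (36.0%), a share near that of the list. The cold and abscisic acid response list held the G-box in 9 of 35 promoters (25.7%). Over the 200 bases before the start its share was 22.9%, above that of the photosystem list. PSBQ-2, a subunit of the oxygen-evolving complex that was at -0.30 ± 0.06, has the G-box 2 times upstream, and its promoter is shown because of these matches, which are in capitals. The sequence comes from the RefSeq TAIR10.1 genome, minus strand, chr4:2673244-2673493, and a match is a description of the letters only.
PSBQ-2: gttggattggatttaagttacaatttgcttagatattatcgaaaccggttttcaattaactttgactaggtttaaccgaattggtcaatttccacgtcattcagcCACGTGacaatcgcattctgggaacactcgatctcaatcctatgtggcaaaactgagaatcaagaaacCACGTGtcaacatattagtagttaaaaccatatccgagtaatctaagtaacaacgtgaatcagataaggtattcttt

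Of 19 tested genes of nitrate uptake and assimilation 9 fell and 1 rose (52.6%, against 12.1% of all genes tested). The median log2 fold change was -0.28. NIA1, a nitrate reductase gene, was at 422, 443 and 429.8 CPM in Col-0 and 229, 212 and 226 CPM in atd14-1. NIA2, for the major nitrate reductase, was at 1724, 1850.1 and 1845 CPM in Col-0 and 1040.1, 1009.7 and 1098 CPM in atd14-1. ASN1, an asparagine synthetase gene induced in the dark and by low sugar, was at 141, 151 and 152 CPM in Col-0 and 67.5, 64.7 and 56.4 CPM in atd14-1. Each was lower in every mutant library than in any Col-0 library (log2 fold change -0.96 ± 0.05 SE, edgeR adjusted p = 3.74e-08, -0.78 ± 0.06 and -1.23 ± 0.08 respectively). ASN2 and LBD39, a nitrogen-responsive repressor, fell too (-0.89 ± 0.07 and -0.70 ± 0.06). The 1 member that rose was GLN1;1, for cytosolic glutamine synthetase, in an overlapping row (0.18 ± 0.05), and its call was lost without Col-0 replicate 1, atd14-1 replicate 1 or atd14-1 replicate 3. The transporter gene NRT1.1 did not pass (0.09 ± 0.07). Directly against AtCXE15-OE, NIA1 was at -0.55 ± 0.05 (edgeR adjusted p = 2.2e-05).

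Of 27 tested genes of the phosphate starvation response, its regulators included, 15 rose and 1 fell (59.3%, against 12.1% of all genes tested). The median log2 fold change was 0.35. The summed level of all 28 listed genes was 1608, 1658 and 1664 CPM in Col-0 and 2069, 2068 and 2155 CPM in atd14-1. SQD1, which makes sulfolipid in place of phospholipid, was at 132, 134 and 135 CPM in Col-0 and 189, 189.6 and 198 CPM in atd14-1. SPX1, a phosphate sensor gene, went from 95.8 ± 3.68 to 135 ± 2.94 CPM (SD, n = 3). PHO1;H1, a phosphate exporter gene, was at 25, 25.7 and 27.4 CPM in Col-0 and 38.4, 39.7 and 36.2 CPM in atd14-1. In all 3 the mutant libraries lay above the Col-0 libraries (log2 fold change 0.53 ± 0.05 SE, edgeR adjusted p = 5.76e-06, 0.49 ± 0.07 and 0.55 ± 0.08 respectively). PHO2, a ubiquitin-conjugating enzyme gene that limits phosphate uptake and whose transcript is known to be lowered in phosphate starvation, also rose (0.44 ± 0.05), as did GDPD1, a phosphodiesterase gene in a row that overlaps another (0.41 ± 0.06, and 0.38 for the summed rows). The member that fell was PHR1, the transcription factor that activates many of these genes (59.2, 59.8 and 60.5 CPM in Col-0 and 51.6, 54.7 and 51.7 CPM in atd14-1, log2 fold change -0.18 ± 0.05), and its call was lost without any 1 of the 6 libraries. Directly against AtCXE15-OE 10 members were higher in atd14-1 (2.86% of all genes tested were), with SPX1 at 0.47 ± 0.07 (edgeR adjusted p = 0.00162).

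The binding sequence of PHR1, P1BS (GNATATNC, a palindrome), was present in 13 of the 27 phosphate genes (48.1%) and in 6.27% of all promoters searched. In the 200 bases before the start the shares were 6 of 27 (22.2%) and 4.34%. GDPD1 has 2 matches upstream, in capitals (RefSeq TAIR10.1, minus strand, chr3:350011-350260), and is shown as the member with most of them before its start among those that rose.
GDPD1: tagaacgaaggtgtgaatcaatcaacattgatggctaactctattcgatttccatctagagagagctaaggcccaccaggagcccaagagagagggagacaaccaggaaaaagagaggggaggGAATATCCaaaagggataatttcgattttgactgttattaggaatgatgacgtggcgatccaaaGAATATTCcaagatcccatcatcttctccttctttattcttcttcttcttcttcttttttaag

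Sulfate reduction and sulfur deficiency genes rose in 12 of 25 cases and fell in 1 (52.0%, against 12.1% of all genes tested). APR1, an adenosine phosphosulfate reductase gene, was at 149, 162 and 156 CPM in Col-0 and 246, 233 and 249 CPM in atd14-1. SDI1, a gene induced when sulfur is short, was at 20.8, 21.1 and 21.2 CPM in Col-0 and 35.8, 32.9 and 39.9 CPM in atd14-1. Both rose without overlap of the groups (log2 fold change 0.64 ± 0.05 SE, edgeR adjusted p = 1.74e-06 and 0.78 ± 0.08), as did LSU2, another marker of sulfur deficiency (0.77 ± 0.08). The count of members that rose fell to 7 when Col-0 replicate 1 was left out and to 6 when atd14-1 replicate 3 was. APR2, which codes for the major isoform of the same reductase, was at 196, 203 and 195 CPM in Col-0 and 36.5, 38.9 and 46.7 CPM in atd14-1. It was thus the member that fell (log2 fold change -2.28 ± 0.08 SE, edgeR adjusted p = 1.05e-09), against the direction of APR1 and of APR3, whose row also overlaps another (0.39 ± 0.05). Against AtCXE15-OE it was at -2.24 ± 0.08 (edgeR adjusted p = 8.56e-10). Its row overlaps those of 2 loci that held under 0.2 CPM each, and the summed rows were at -2.28.

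Iron genes showed no common direction, with 2 of 16 higher and 4 lower (37.5%, against 12.1% of all genes tested). The ferritin gene FER3 rose (51.4, 54.5 and 57.8 CPM in Col-0 and 68.3, 71.4 and 75.7 CPM in atd14-1, log2 fold change 0.40 ± 0.07 SE, edgeR adjusted p = 0.00107), and so did FER1 (0.37 ± 0.05), whose row lies in a chain with 13 others, that of the antenna gene LHCB4.1 among them, and which was at -0.28 for the summed rows. OPT3, NAS4 and BTS, for a phloem iron transporter, a nicotianamine synthase and a ubiquitin ligase of iron sensing, fell (-0.32 ± 0.05, -0.54 ± 0.10 and -0.22 ± 0.04). The root uptake genes IRT1 and FRO2 were under 3 CPM in every library and did not pass (edgeR adjusted p = 0.617 and 0.531).

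Genes of the sugar starvation and dormancy list were mostly lower, with 17 of 26 falling and 2 rising (73.1%, against 12.1% of all genes tested). The median log2 fold change was -0.35. The list is mixed and holds the kinase genes KIN10 and KIN11, so its members are not all genes induced by starvation. DIN10, a raffinose synthase-like gene, was at 237, 252 and 249 CPM in Col-0 and 99, 100.5 and 104 CPM in atd14-1. BXL1, a xylosidase gene, was at 296, 317 and 316 CPM in Col-0 and 137, 133 and 142 CPM in atd14-1. In both every mutant library was far below every Col-0 library (log2 fold change -1.28 ± 0.05 SE, edgeR adjusted p = 2.19e-09 and log2 fold change -1.17 ± 0.06 SE, edgeR adjusted p = 3.09e-08). DIN1, a senescence-associated gene, fell further (51.6, 47.9 and 57.6 CPM in Col-0 and 14.2, 15.1 and 18.1 CPM in atd14-1, log2 fold change -1.73 ± 0.22 SE, edgeR adjusted p = 0.00322), and BT2, a sugar-repressed scaffold gene, and TPS9, a trehalose phosphate synthase-like gene, were at -0.96 ± 0.09 and -0.57 ± 0.06. The 2 that rose were TPS5, of the same family as TPS9, and DIN2, a glucosidase gene (0.59 ± 0.05 and 1.15 ± 0.20). Directly against AtCXE15-OE 13 members were lower and 2 higher (4.18% and 2.86% of all genes tested were), with DIN10 at -0.94 ± 0.05 (edgeR adjusted p = 8.2e-08).

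Of 32 genes for starch, invertases and sugar carriers 11 rose and 6 fell (53.1%, against 12.1% of all genes tested). The bin of the highest level, where 22.0% of genes passed, holds 24 of the 32. SEX4 and ISA3, for a phosphatase and a debranching enzyme of starch breakdown, were at 59, 62.2 and 62 CPM in Col-0 and 92.5, 88.7 and 86.2 CPM in atd14-1 and at 50.6, 60 and 59.7 CPM in Col-0 and 83.3, 85.8 and 86.6 CPM in atd14-1. Both rose (log2 fold change 0.55 ± 0.05 SE, edgeR adjusted p = 1.24e-05 and 0.59 ± 0.06), as did APL3, a subunit gene of the starch synthesis enzyme ADP-glucose pyrophosphorylase (0.82 ± 0.08), and PHS2, a glucan phosphorylase gene in an overlapping row (0.53 ± 0.06). The hexose carrier gene STP1 fell (132, 140.4 and 151 CPM in Col-0 and 88.6, 88.3 and 92.7 CPM in atd14-1, log2 fold change -0.65 ± 0.06). CWINV5, a cell wall invertase gene, was near the floor in the mutant (3.15, 2.12 and 2.38 CPM in Col-0 and 0.155, 0.398 and 0.522 CPM in atd14-1) and fell (-2.80 ± 0.39). Against AtCXE15-OE it was at 0.76 ± 0.44 and did not pass (edgeR adjusted p = 0.365).

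**Figure D3:**
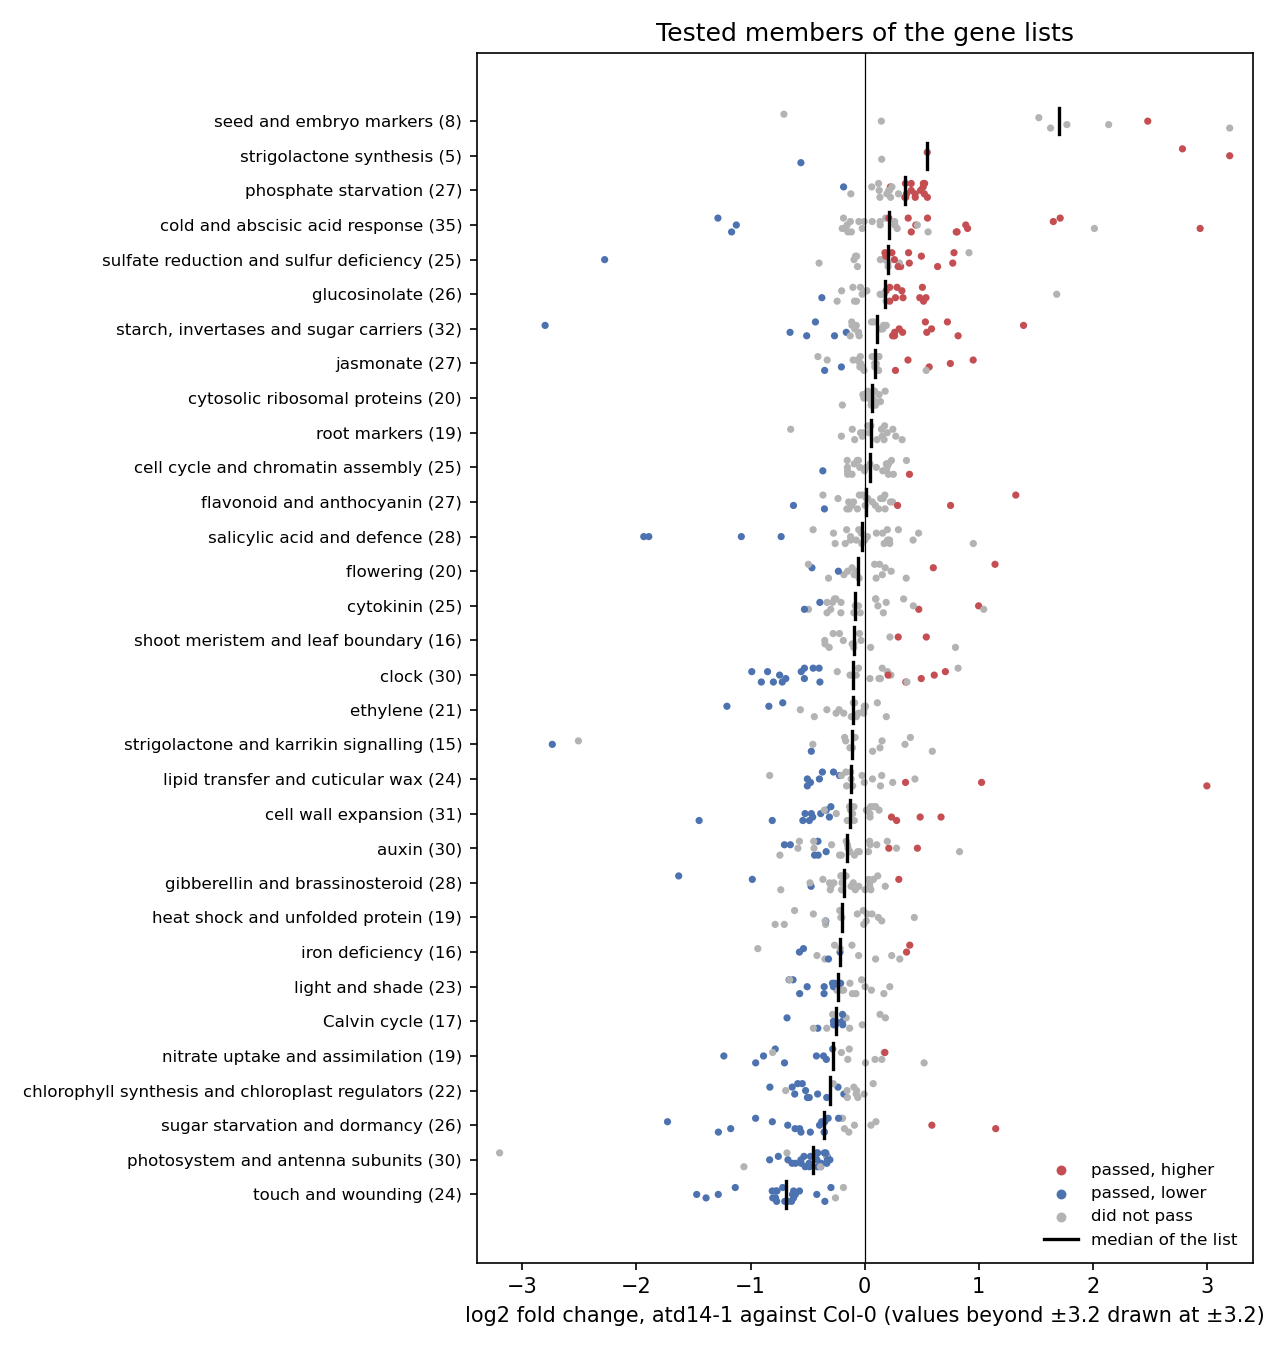
Log2 fold changes in atd14-1 against Col-0 of the tested members of 32 gene lists, ordered by median, with the number tested in parentheses, black bars at the medians and colours for members that passed edgeR's test. Touch and wounding genes (median -0.69) and photosystem genes (-0.45) lie at the bottom and phosphate starvation genes (0.35) near the top, below strigolactone synthesis and seed markers.

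Genes known to be induced within minutes by touch or wounding had the lowest median of the lists (-0.69), with 22 of 24 tested members falling and all 24 below 0. The share that fell was 91.7%, against 6.98% of all genes tested. SZF1, a zinc finger gene, was at 130.4, 141 and 145 CPM in Col-0 and 58.3, 53.6 and 58.9 CPM in atd14-1. TCH4, which codes for a xyloglucan endotransglucosylase, was at 82.8, 79.8 and 81.7 CPM in Col-0 and 48.6, 42.9 and 48.4 CPM in atd14-1. Both were lower in every mutant library (log2 fold change -1.28 ± 0.06 SE, edgeR adjusted p = 2.1e-08 and -0.81 ± 0.06). SZF2 was at -0.72 ± 0.06, and the transcription factor genes WRKY40 and WRKY33, whose rows overlap others, were at -1.39 ± 0.11 and -0.78 ± 0.06 (-0.97 and -0.75 for the summed rows). CML39 and WRKY18 did not pass. The summed level of the list was 1109, 1126 and 1142 CPM in Col-0 and 673, 645 and 697 CPM in atd14-1.

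Tested directly against AtCXE15-OE, 1 of the 24 members passed, where 7.04% of all genes tested did. It was ZAT10, a zinc finger gene that was higher in atd14-1 (0.28 ± 0.06, edgeR adjusted p = 0.013), and the median log2 fold change of the list was 0.04. SZF1 was at 0.10 ± 0.06 in that test. These genes are known to respond to handling, which the labels do not describe, so handling and genotype cannot be told apart here. The rapid stress response element (CGCGTT on either strand) was found in 2 of the 24 promoters (8.33%, against 3.72% of all). It was in 2 of the 22 members that passed against Col-0 (9.09%). TCH2, a calmodulin-like gene that fell (73.6, 69.5 and 74 CPM in Col-0 and 50.2, 45.1 and 50.8 CPM in atd14-1, log2 fold change -0.57 ± 0.06), is shown because it holds 4 overlapping matches at 2 places, in capitals (RefSeq TAIR10.1, minus strand, chr5:14999620-14999869).
TCH2: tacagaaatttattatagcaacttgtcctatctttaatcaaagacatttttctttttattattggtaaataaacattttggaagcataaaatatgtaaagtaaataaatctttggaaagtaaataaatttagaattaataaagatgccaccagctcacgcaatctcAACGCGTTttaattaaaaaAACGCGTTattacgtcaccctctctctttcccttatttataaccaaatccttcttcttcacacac

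Cold and abscisic acid response genes moved in both directions, 12 of 35 rising and 3 falling (42.9%, against 12.1% of all genes tested). COR15A and COR15B, whose products protect chloroplast membranes in the cold, were at 11, 10.9 and 13.4 CPM in Col-0 and 40.5, 36.3 and 39 CPM in atd14-1 and at 15.3, 14.7 and 15.6 CPM in Col-0 and 48.3, 50.5 and 44.4 CPM in atd14-1. RD29A, a dehydration and cold marker, was at 75.1, 80.6 and 74.7 CPM in Col-0 and 150.1, 134 and 146 CPM in atd14-1. GolS2, a galactinol synthase gene, was at 24.5, 24.7 and 25.9 CPM in Col-0 and 46.6, 42.9 and 49.2 CPM in atd14-1. In all 4 the groups were clearly apart (log2 fold change 1.71 ± 0.18 SE, edgeR adjusted p = 0.000307, 1.65 ± 0.07, 0.90 ± 0.09 and 0.89 ± 0.09 respectively). RAP2.1, an ERF-type repressor gene, rose from low values (0.426, 0.49 and 1.22 CPM in Col-0 and 4.5, 5.81 and 6.15 CPM in atd14-1, log2 fold change 2.94 ± 0.36 SE, edgeR adjusted p = 0.000425). P5CS1, for proline synthesis, was at 0.45 ± 0.06 in an overlapping row (0.43 summed). The 3 that fell were the cold regulators CBF1 (-1.12 ± 0.19) and CBF2 (-1.17 ± 0.16) and the abscisic acid hydroxylase gene CYP707A3 (13.4, 13.6 and 11.9 CPM in Col-0 and 6.13, 5.46 and 4.35 CPM in atd14-1, log2 fold change -1.29 ± 0.17).

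Some of these members also differed from AtCXE15-OE. Against AtCXE15-OE COR15A was at 1.49 ± 0.18 (edgeR adjusted p = 0.00168) and GolS2 at 0.88 ± 0.09 (edgeR adjusted p = 3.8e-05), while RAP2.1, CBF1 and CBF2 did not pass (log2 fold changes 0.25 ± 0.32, -0.28 ± 0.19 and -0.14 ± 0.16). The core of the element that CBF proteins bind (CCGAC, either strand) was in 8 of 35 promoters (22.9%) and in 15.9% of all, or in 7 of 35 and 10.8% over the 200 bases before the start. Of the 15 members that passed, 5 held it in the longer window (33.3%). RD29A (plus strand, chr5:21240467-21240716) and COR15A (minus strand, chr2:17712331-17712580) are shown with their matches in capitals, from the same genome, as the members that rose with most upstream matches.
RD29A: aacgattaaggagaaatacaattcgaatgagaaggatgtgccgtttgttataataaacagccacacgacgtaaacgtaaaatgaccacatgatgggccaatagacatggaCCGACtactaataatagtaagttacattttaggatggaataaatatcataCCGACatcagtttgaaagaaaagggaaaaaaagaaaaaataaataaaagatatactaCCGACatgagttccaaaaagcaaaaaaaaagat
COR15A: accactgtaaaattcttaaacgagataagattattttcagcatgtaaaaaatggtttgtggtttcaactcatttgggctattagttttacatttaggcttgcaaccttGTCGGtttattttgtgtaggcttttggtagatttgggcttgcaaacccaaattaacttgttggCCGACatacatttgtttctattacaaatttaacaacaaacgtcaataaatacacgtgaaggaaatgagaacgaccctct

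Jasmonate genes had 5 of 27 members higher and 2 lower (25.9%, against 12.1% of all genes tested). LOX2, the chloroplast lipoxygenase gene that starts wound-induced jasmonate synthesis, was at 429, 447 and 424 CPM in Col-0 and 854, 830.3 and 828 CPM in atd14-1. VSP2, a jasmonate-induced storage protein gene, was at 119, 118 and 104 CPM in Col-0 and 202, 186 and 187 CPM in atd14-1. Both rose with no overlap (log2 fold change 0.95 ± 0.07 SE, edgeR adjusted p = 8.98e-07 and 0.75 ± 0.08), as did AOC2, an allene oxide cyclase gene (0.57 ± 0.05). MYC2, the main transcription factor of the response, fell (147, 142 and 146 CPM in Col-0 and 112, 115 and 115 CPM in atd14-1, log2 fold change -0.35 ± 0.05 SE, edgeR adjusted p = 0.000185). The other member that fell, JAZ9, lost its call without any 1 of the 6 libraries. AOC4, in an overlapping row, was at 0.27 ± 0.06.

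Of 28 salicylic acid and defence genes 4 fell, a share of 14.3% that is close to the 12.1% of all genes tested. CRK30, a receptor-like kinase gene, was at 5.02, 6.45 and 4.94 CPM in Col-0 and 1.53, 1.43 and 1.33 CPM in atd14-1 (log2 fold change -1.94 ± 0.18 SE, edgeR adjusted p = 9.68e-06), and CBP60G, an activator of salicylic acid synthesis, at -0.73 ± 0.13. AIG1, in an overlapping row, was at -1.89 ± 0.22 (-1.31 summed). ALD1, for pipecolic acid synthesis, was at -1.08 ± 0.30, a call lost without Col-0 replicate 2 or 3 or atd14-1 replicate 1 or 2 (edgeR adjusted p up to 0.118). ICS1 and PAD4 did not pass (edgeR adjusted p = 0.0964 and 0.0806). Of 19 heat shock and unfolded protein genes 1 fell (5.26%), HSP70 in an overlapping row (-0.34 ± 0.07), while HSP90.1, HSFA7A, PDIL1-1 and BZIP60 did not pass. Without Col-0 replicate 3 or atd14-1 replicate 2 the count that fell was 2.

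Of 26 glucosinolate genes 11 rose and 1 fell (46.15%, against 12.1% of all genes tested), with a median log2 fold change of 0.18. The bin of the highest level, where 22.0% of genes passed, holds 23 of the 26. Their summed level was lower in every mutant library, at 9003, 9576 and 8751 CPM in Col-0 and 8536, 8567 and 8514 CPM in atd14-1. FMOGS-OX3, which modifies aliphatic side chains, was at 53.4, 52.5 and 58.4 CPM in Col-0 and 80.2, 76.5 and 78.2 CPM in atd14-1. MAM1, which elongates them, was at 386, 412 and 407 CPM in Col-0 and 513, 484 and 513 CPM in atd14-1. Both rose (log2 fold change 0.52 ± 0.06 SE, edgeR adjusted p = 6.71e-05 and 0.33 ± 0.06). CYP79F1 and BCAT4, which act in the same aliphatic pathway and whose rows overlap others, were at 0.54 ± 0.06 and 0.48 ± 0.06. The member that fell was TGG1, a myrosinase gene that degrades glucosinolates (3628, 4080.5 and 3533 CPM in Col-0 and 2854, 2934 and 2880.0 CPM in atd14-1, log2 fold change -0.37 ± 0.06 SE, edgeR adjusted p = 0.000968). Against AtCXE15-OE 9 members were higher (2.86% of all genes tested were). Without atd14-1 replicate 1 the count that fell was 2. Of 27 flavonoid and anthocyanin genes 3 rose and 2 fell (18.5%, against 12.1% of all genes tested). PAP1, F3H and PAP2 (0.75 ± 0.19, 0.29 ± 0.08 and 1.32 ± 0.40) rose, and of these calls 1 remained by count without Col-0 replicate 1 or 2 or atd14-1 replicate 1 or 2, and 0 without Col-0 replicate 3 or atd14-1 replicate 3. MYBL2, a repressor of the pathway, fell (-0.35 ± 0.06), as did SNG1 in an overlapping row (-0.62 ± 0.06).

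**Figure D4:**
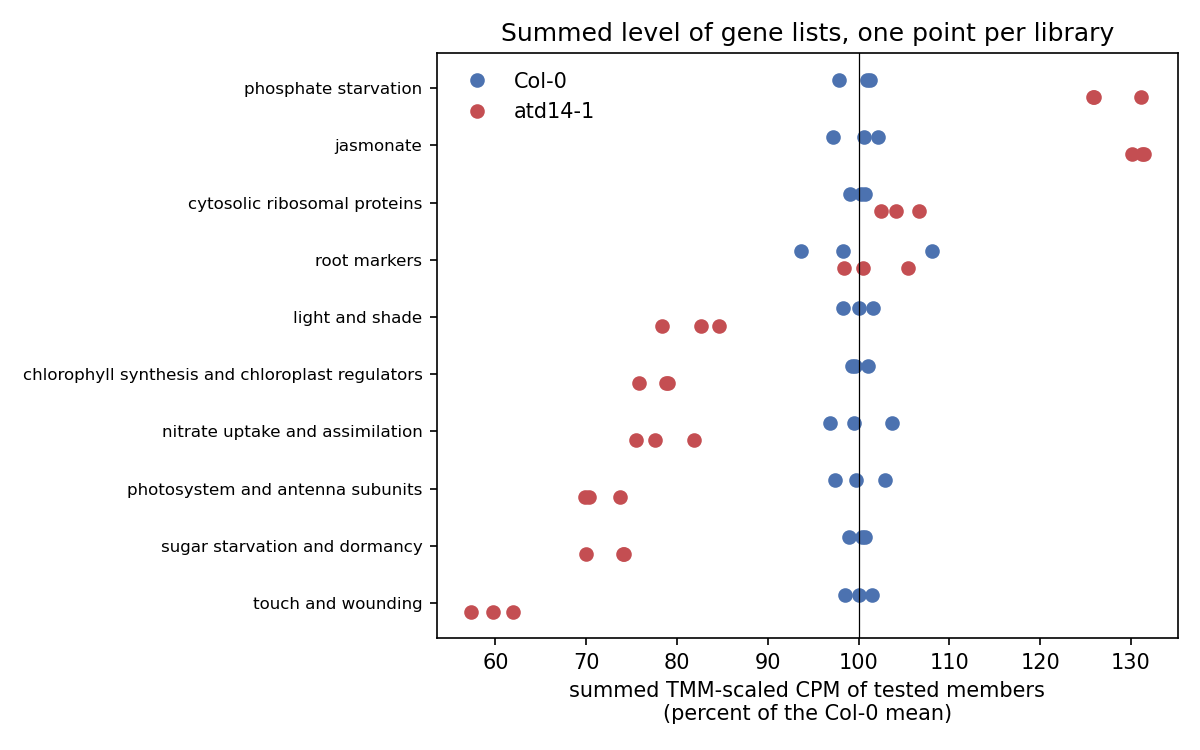
Summed TMM-scaled CPM of all listed members of 10 gene lists in each library, as percent of the Col-0 mean, with Col-0 in blue and atd14-1 in red. The axis label says tested members, but the sums also hold listed members that were not tested. Every mutant library lies below every Col-0 library for touch, sugar starvation, photosystem, nitrate, chlorophyll and light genes and above for phosphate, jasmonate and ribosomal protein genes, and the points of the root markers overlap. The jasmonate sum was 1841, 1869 and 1778.5 CPM in Col-0 and 2405, 2402 and 2381 CPM in atd14-1. LOX2 alone gained 404 CPM on average, while 20 of the 27 jasmonate members did not pass and the median log2 fold change was 0.09.

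Clock genes changed in both directions, 13 of 30 falling and 5 rising (60.0%, against 12.1% of all genes tested). CCA1, a morning repressor at the core of the clock, was at 101, 95.3 and 95.7 CPM in Col-0 and 58.2, 57.4 and 58.6 CPM in atd14-1. LNK3, of a family of morning coactivators, was at 28.6, 28.9 and 31.2 CPM in Col-0 and 15.1, 16.4 and 15.8 CPM in atd14-1. Both fell without overlap (log2 fold change -0.75 ± 0.06 SE, edgeR adjusted p = 2.87e-06 and -0.91 ± 0.07). LNK2, COL2 and RVE4, in overlapping rows, were at -0.99 ± 0.07, -0.85 ± 0.06 and -0.53 ± 0.05 (-0.99, -0.66 and -0.26 summed). GRP7, an evening-phased RNA-binding protein gene, was at 658, 626 and 728 CPM in Col-0 and 1128, 987 and 1172 CPM in atd14-1 and rose (log2 fold change 0.71 ± 0.07 SE, edgeR adjusted p = 1.77e-05). The others that rose were FKF1 (0.61 ± 0.09), PRR3 (0.50 ± 0.07), ELF4 (0.36 ± 0.08) and TOC1 (0.21 ± 0.05), which are known to peak from afternoon to evening. RVE1, PRR9 and PRR7, known to peak in the morning, fell (-0.72 ± 0.07, -0.69 ± 0.10 and -0.39 ± 0.07). The 12 members that did not pass include PRR5, LUX, BOA and GRP8, so not every member of the list shows a change. The hour of harvest is not given, so a difference in hour between the groups and a difference in genotype cannot be told apart here. Against AtCXE15-OE 10 members were lower and 1 higher (4.18% and 2.86% of all genes tested were), with CCA1 at -0.39 ± 0.06 (edgeR adjusted p = 0.00169).

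The evening element (AAAATATCT, either strand) was in 9 of 30 promoters of the list (30.0%) and in 2.97% of all, or in 8 of 30 and 2.04% over the 200 bases before the start. Of the 18 members that passed, 5 held it in the longer window (27.8%). PRR9 and COL2 of these were lower in atd14-1, and TOC1, FKF1 and GRP7 were higher. GRP7 has 3 matches (RefSeq TAIR10.1, minus strand, chr2:9266558-9266807), in capitals, and is shown as the member with most of them.
GRP7: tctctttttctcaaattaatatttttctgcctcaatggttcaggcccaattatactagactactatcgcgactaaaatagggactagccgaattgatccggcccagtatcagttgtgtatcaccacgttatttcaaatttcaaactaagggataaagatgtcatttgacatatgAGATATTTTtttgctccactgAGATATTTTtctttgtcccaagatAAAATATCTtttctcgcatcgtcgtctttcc

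**Figure D5:**
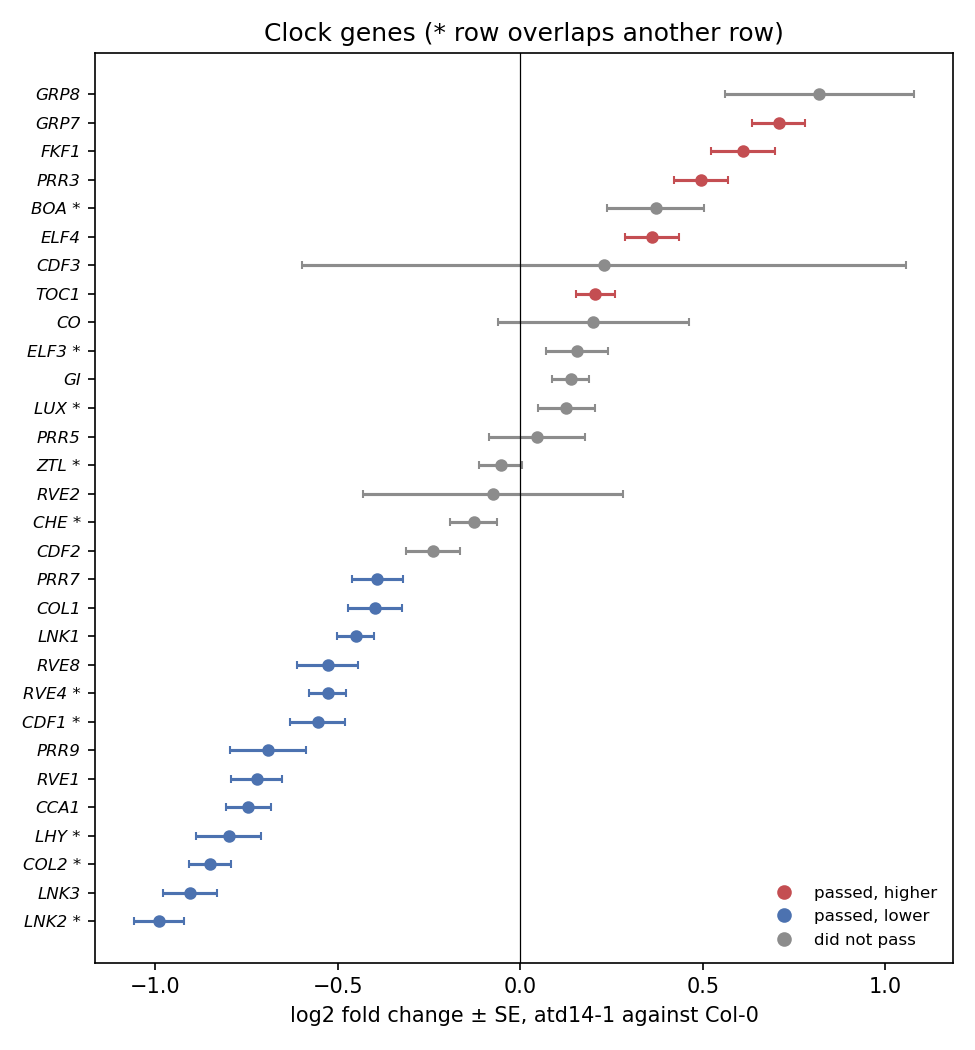
Log2 fold changes ± SE in atd14-1 against Col-0 of 30 clock genes, ordered by value, with an asterisk for rows that overlap another. The 13 that fell run from LNK2 to PRR7 and include CCA1 and PRR9, and the 5 that rose include GRP7 and TOC1.

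Light and shade genes fell in 10 of 23 cases (43.5%, against 6.98% of all genes tested), with a median log2 fold change of -0.23. RPT2, a phototropism signalling gene, was at 400.4, 404 and 438 CPM in Col-0 and 239, 274 and 272 CPM in atd14-1. PIF5, a phytochrome-interacting factor gene, was at 134, 132 and 124 CPM in Col-0 and 91.7, 91.8 and 91.6 CPM in atd14-1. Both fell (log2 fold change -0.66 ± 0.06 SE, edgeR adjusted p = 9.89e-06 and -0.50 ± 0.05), and PIF4 and HYH were at -0.27 ± 0.05 and -0.57 ± 0.12. EPR1 was at -0.63 ± 0.09 in a row that overlaps others (-0.17 summed). Of 20 flowering genes 2 rose and 2 fell (20.0%, against 12.1% of all genes tested). FUL, a MADS-box gene, was at 1.4, 1.88 and 1.65 CPM in Col-0 and 3.42, 4.02 and 3.43 CPM in atd14-1 and rose (log2 fold change 1.14 ± 0.21 SE, edgeR adjusted p = 0.00196), and TEM2, a repressor of flowering, fell (-0.46 ± 0.06). FLC rose (0.60 ± 0.15) and SNZ fell (-0.23 ± 0.06), and both calls were lost without Col-0 replicate 1, Col-0 replicate 2 or atd14-1 replicate 2, that of FLC also without atd14-1 replicate 1 and that of SNZ also without atd14-1 replicate 3 (edgeR adjusted p up to 0.0873 and 0.139).

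Of 30 auxin genes 6 fell and 2 rose, or 26.7% against 12.1% of all genes tested. The list had 21 log2 fold changes below 0 and 9 above, with a median of -0.16 and a highest value of 0.83. GH3.6, which conjugates auxin to amino acids, was at 103, 108 and 115 CPM in Col-0 and 67, 65.9 and 66.9 CPM in atd14-1 (log2 fold change -0.70 ± 0.06 SE, edgeR adjusted p = 5.3e-06). The auxin-induced genes IAA2 and IAA7, the synthesis gene CYP79B3 and GH3.5 fell too (-0.41 ± 0.06, -0.44 ± 0.07, -0.41 ± 0.06 and -0.34 ± 0.06).

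Of 21 ethylene genes 3 fell, a share of 14.3% that is close to the 12.1% of all genes tested. ACS6, an ethylene synthesis gene, was at 64.2, 60.6 and 63.4 CPM in Col-0 and 40.3, 36.3 and 37.8 CPM in atd14-1 (log2 fold change -0.72 ± 0.06 SE, edgeR adjusted p = 5.76e-06). ACS11 was at -1.21 ± 0.29, a call lost without Col-0 replicate 1 (edgeR adjusted p up to 0.0549). Of 28 gibberellin and brassinosteroid genes 3 fell and 1 rose, also 14.3%. GASA1, a gibberellin-regulated peptide gene, was at 138, 129 and 166 CPM in Col-0 and 66.7, 74.5 and 78 CPM in atd14-1 (log2 fold change -0.98 ± 0.10 SE, edgeR adjusted p = 0.000134), with GASA6 at -0.47 ± 0.09 and GASA4, which rose, at 0.30 ± 0.06. GA2OX1 was at -1.63 ± 0.46, a call lost without Col-0 replicate 1 or 2 or atd14-1 replicate 1 or 3 (edgeR adjusted p up to 0.13). Of 25 cytokinin genes 2 rose and 2 fell (16.0%). The synthesis gene IPT3 fell (10.3, 10.5 and 10.1 CPM in Col-0 and 7.07, 8.21 and 6.19 CPM in atd14-1, log2 fold change -0.53 ± 0.12), while IPT7 and CKX5 were higher (1.00 ± 0.24 and 0.47 ± 0.12) and ARR5 lower (-0.39 ± 0.11). These 3 calls were each lost without Col-0 replicate 1 or atd14-1 replicate 2, that of CKX5 also without Col-0 replicate 2 or atd14-1 replicate 3 and that of ARR5 also without Col-0 replicate 3 or atd14-1 replicate 1 (edgeR adjusted p up to 0.0619, 0.259 and 0.119). CKX5 lies in an overlapping row and was at -0.13 for the summed rows.

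Cell wall expansion genes fell in 11 of 31 cases and rose in 4 (48.4%, against 12.1% of all genes tested). XTH6, a xyloglucan endotransglucosylase gene, was at 84.7, 87.1 and 86 CPM in Col-0 and 45.7, 51.5 and 49.8 CPM in atd14-1. EXPA8, an expansin gene, was at 171, 170.5 and 171 CPM in Col-0 and 126, 112 and 119.8 CPM in atd14-1. Both fell (log2 fold change -0.81 ± 0.07 SE, edgeR adjusted p = 7.24e-06 and -0.52 ± 0.07), as did EXPA1 and the aquaporin gene PIP2A (-0.48 ± 0.06 and -0.39 ± 0.06), while the expansin gene EXPA15 rose (0.49 ± 0.08). The count that fell was 7 without atd14-1 replicate 1, and the count that rose was 2 without that library, Col-0 replicate 1 or Col-0 replicate 2. Of 24 lipid transfer and cuticular wax genes 7 fell and 3 rose (41.7%, against 12.1% of all genes tested). LTP4, a lipid transfer protein gene, was at 1.16, 1.34 and 1.24 CPM in Col-0 and 9.63, 8.67 and 11.7 CPM in atd14-1 and rose (log2 fold change 3.00 ± 0.23 SE, edgeR adjusted p = 1.42e-06), with LTP3 beside it at 1.02 ± 0.14. KCS1 and CER6, which elongate fatty acids for wax, fell (-0.50 ± 0.06 and -0.40 ± 0.08), as did CER2 in an overlapping row (-0.47 ± 0.08, -0.21 summed). Against AtCXE15-OE LTP4 was at 1.95 ± 0.21 (edgeR adjusted p = 0.000116).

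No ribosomal protein gene (20 tested) and no root marker (19 tested) passed edgeR's test, while 1 gene of each list was under 0.05 before adjustment and 0 were called in either list by limma-voom or DESeq2. The summed level of the ribosomal protein genes was 4088, 4136 and 4153 CPM in Col-0 and 4399, 4227 and 4296 CPM in atd14-1, slightly higher in every mutant library. Without atd14-1 replicate 3 edgeR called 1 ribosomal gene lower. Of 25 cell cycle and chromatin assembly genes 1 rose, PCNA1 (0.39 ± 0.09, a call lost without Col-0 replicate 3, adjusted p up to 0.0542), and 1 fell, KRP2 (-0.37 ± 0.10, lost without Col-0 replicate 3 or atd14-1 replicate 1 or 2, adjusted p up to 0.138), and 6 rose when counts were scaled by library size alone. With TMM the share that passed, 8.0%, was under the 12.1% of all genes tested. Of 16 shoot meristem and leaf boundary genes 2 rose (12.5%, near the 12.1% of all genes tested), KNAT1 (25.4, 24.1 and 21.4 CPM in Col-0 and 37.9, 32 and 33.3 CPM in atd14-1, log2 fold change 0.54 ± 0.10 SE, edgeR adjusted p = 0.00205) and AS1 (0.29 ± 0.06), which are both regulators of leaf and stem patterning.

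Of 14 seed and embryo markers 8 passed the filter, and 1 of these passed the test (12.5%, near the 12.1% of all genes tested). The filter needs enough counts in only 3 libraries, so a gene can pass it with low Col-0 counts. The summed level of all 14 was 4.55, 1.29 and 3.22 CPM in Col-0 and 12.6, 20.6 and 13.6 CPM in atd14-1. The sum was low throughout and higher in every mutant library, where most of it came from CRA1 and CRU3. CRA1, a seed storage protein gene, was at 2.2, 0.645 and 2.08 CPM in Col-0 and 7.35, 12.5 and 7.71 CPM in atd14-1 and was the 1 member that passed (log2 fold change 2.48 ± 0.46 SE, edgeR adjusted p = 0.014), and CRU3, of the same family, was at 0.9, 0 and 0.286 CPM in Col-0 and 3.08, 5.26 and 4.26 CPM in atd14-1 (edgeR adjusted p = 0.0803, called by DESeq2 and without Col-0 replicate 1). The late embryogenesis gene LEA18 (0.237, 0.0774 and 0.0716 CPM in Col-0 and 1.01, 1.41 and 0.63 CPM in atd14-1, log2 fold change 2.95 ± 0.53) and PER1, a peroxiredoxin gene of seeds (0.284, 0 and 0.358 CPM in Col-0 and 1.29, 1.74 and 1.02 CPM in atd14-1, 2.63 ± 0.74), were also among the highest log2 fold changes, with Col-0 values close to the floor, so that the size is uncertain. The PER1 call was lost without Col-0 replicate 1 or 3 or any 1 mutant library (edgeR adjusted p up to 0.13). The part of seed transcripts in the other results was not tested.

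Over all genes, the highest log2 fold changes among symbol-bearing genes that passed and whose groups did not overlap and averaged at least 1 CPM in one of them, in rows that overlap no other, were those of NUDT24, a nudix hydrolase gene, and CCD7. NUDT24 was at 0.189, 0.0774 and 0.167 CPM in Col-0 and 2.43, 2.39 and 2.46 CPM in atd14-1 (log2 fold change 4.03 ± 0.38 SE, edgeR adjusted p = 1.07e-05). Its Col-0 values are close to the floor, so the size is uncertain, and it was also higher than in AtCXE15-OE (2.81 ± 0.34, edgeR adjusted p = 0.000294). The purine permease-like gene PUP12, the carboxypeptidase-like gene scpl30, the cellulase gene CEL3 and GDU6 were among the 15 highest, at 2.92 ± 0.37, 2.66 ± 0.29, 2.35 ± 0.17 and 2.35 ± 0.32. CEL3 had the smallest SE of these 4 and was at 2.82, 2.55 and 2.19 CPM in Col-0 and 13.4, 11.7 and 13.4 CPM in atd14-1. FPF1, the actin gene ACT4 and the laccase gene LAC2 were at 2.36 ± 0.46, 2.11 ± 0.44 and 1.71 ± 0.26.

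Among the lowest, PP2-A5, a phloem protein gene, was at 2.13, 2.6 and 2.89 CPM in Col-0 and 0.492, 0.47 and 0.652 CPM in atd14-1 (log2 fold change -2.23 ± 0.31 SE, edgeR adjusted p = 0.000253). ZAT7, the abscisic acid receptor gene PYL6, RL6 and XTH33 were at -2.07 ± 0.40, -1.70 ± 0.24, -1.49 ± 0.31 and -1.45 ± 0.25. BBX32, a B-box gene of light signalling, was at 8.05, 8.56 and 8.37 CPM in Col-0 and 3.26, 2.46 and 3.65 CPM in atd14-1, with every mutant library under the lowest Col-0 library (log2 fold change -1.42 ± 0.18 SE, edgeR adjusted p = 9.73e-05). The receptor-like kinase gene CRK12 and GASA5 were at -1.26 ± 0.23 and -1.24 ± 0.15, and CRK37 at -1.26 ± 0.35, a call lost without any 1 library but atd14-1 replicate 3 (edgeR adjusted p up to 0.121).

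In absolute level, among symbol-bearing genes that passed and whose rows overlap no other, the greatest gains after LOX2 and GRP7 were those of GSTF9, a glutathione transferase gene, from 692 ± 24.4 to 888 ± 31.6 CPM (SD, n = 3), and AAP2, an amino acid permease gene, from 426 ± 16 to 619 ± 23.6 CPM. AT3G03780, a methionine synthase gene, rose from 374 ± 17.5 to 551 ± 18.8 CPM, and GER3, CCL and BGLU18, a glucosidase gene that releases abscisic acid from its conjugate, were at log2 fold changes of 0.42 ± 0.07, 0.26 ± 0.05 and 0.68 ± 0.06. Within the same limits the 8 greatest losses were CAB1, LHB1B1, CAB3, LHCA1, NIA2, TGG1, PSBP-1 and LHCB5, all given above, of which 6 belong to the photosynthetic apparatus. Such a ranking by CPM favours genes of high level. Losses of RCA, LHCA4, LHCB3 and LHCA3, in overlapping rows, were of similar size.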

How the data were processed

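Poly(A) RNA of whole seedlings was sequenced, and the authors deposited 1 table of raw counts per gene with no normalization. Per the submitters' processing notes, the build was TAIR10 and the tools included DESeq 1.39.0, SAMtools 0.1.18, Picard and HISAT2, with no role given. The kit does not mark strand per the labels' protocols, so reads of a gene and an antisense or overlapping partner cannot be told apart. Of 27814 rows, 448 without a locus ID were left out of library sizes and tests. Gene symbols and positions came from the RefSeq TAIR10.1 annotation by locus (26694 matched).

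The counts were filtered with edgeR's filterByExpr and scaled by TMM, and all 9 libraries were fitted by group with edgeR 4.0.16's quasi-likelihood test in R 4.3.3, with Benjamini-Hochberg adjustment over all 21131 genes. The SE is the log2 fold change divided by the square root of F, an approximation. DESeq2 1.42.0, limma-voom (limma 3.58.1), other scalings and filters, a replicate block and leaving out each library were the alternatives, and summing overlapping rows was added after seeing the data. Overlap was counted among rows under 100 kb, and 72 wider rows were treated separately. The code was tested on simulated data. The members and lists were chosen with earlier results of these data known.

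Genes named are the tested members of both strigolactone lists, the 5 members of each other list with the smallest adjusted p, the 15 highest and 15 lowest log2 fold changes and the 8 largest gains and losses of CPM among genes that passed and have a symbol and a row that overlaps no other. The genes of these fold changes also needed a mean of 1 CPM or more in a group and no overlap of groups. Other members named were chosen after their values were seen. Some genes that this rule names are not reported here.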

Additional observations from a re-analysis of the deposited data

How the results depend on the processing

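The direction of D14 and its call held in every alternative (log2 fold change -2.76 to -2.66). The 2558 genes called against Col-0 became 3012 with DESeq2, 2511 with limma-voom and 1714 to 1909 with 1 library left out, where the higher count ran from 669 to 777 and the lower from 1012 to 1156. Scaling by library size alone, which moved the median of all genes by 0.08 (log2), gave 2253 higher and 971 lower. Against AtCXE15-OE the main counts of 1488 genes, 604 higher and 884 lower, ran from 782 to 2227, from 299 to 1023 and from 483 to 1204 with 1 library left out, and were 1066 higher and 548 lower by library size alone. Without AtCXE15-OE replicate 1 the counts were the highest and without AtCXE15-OE replicate 3 the lowest. Of 160 named genes called besides D14, 141 kept their call in each alternative that tested them. With overlapping rows summed, FER1 turned to -0.28 and CKX5 to -0.13, because the rows of their neighbours enter the sum. Replicate numbers did not pair the libraries (correlations of deviations 0.01, -0.01 and 0.06 for the same number), and the replicate block gave 2596 calls. The floor of 3 counts limits what low genes can show, and from 3 to 12 counts, the highest examined, odd numbers were more frequent than the even ones beside them (1879 values of 3 and 945 of 4). Folds of genes near the floor are therefore uncertain.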
